A study of Sus scrofa with 63 samples.

Results

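Chaperones are proteins that help other proteins fold and keep damaged ones from clumping. HSP70 proteins bind unfolded stretches, J proteins of the DNAJ families hand substrates to them, HSP110 proteins and BAG3 release the nucleotide, HSP90 finishes selected clients, and the ring-shaped CCT/TCP1 complex folds actin and tubulin. Small heat shock proteins hold damaged proteins without using ATP. Separate members serve the endoplasmic reticulum (ER), where secreted proteins such as collagen fold, and the mitochondria, and some are induced by stress while others are always made.

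The chaperone genes described here are the 54 genes whose symbol on the array begins with HSP, DNAJ or CCT2 to CCT8, or is TCP1, BAG3 or CRYAB, out of 6765 genes with a symbol of their own. They were read by 88 of the 23999 probe sets tested. For the 22 genes with several probe sets, the brightest on average over the 63 arrays was taken, and no filter on low values was applied, so all 54 were tested. By role they were 8 small heat shock proteins, 11 HSP70 and HSP110 genes, 3 HSP90 genes, 2 mitochondrial HSP60 and HSP10 genes, 4 DNAJA, 7 DNAJB and 11 DNAJC genes, 6 genes of the CCT/TCP1 ring and 2 regulators of HSP70. HSPB11 is grouped by its symbol and is not a classical small heat shock protein, since it is also known as the transport protein IFT25. HSP70.2 is the pig symbol for the stress-inducible HSP70, whose near-identical gene copies one probe set cannot separate.

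The samples were skin of female Yorkshire crossbred pigs, and the exposed sites on the belly received 400 µL of undiluted sulfur mustard, an alkylating blister agent, for 8 min. Control sites were unexposed skin of the exposed animals, and sham skin came from animals that were prepared in the same way without the agent. At each of 9 times, labelled 1, 2, 4, 24, 48, 72, 168, 336 and 514 h, 3 exposed, 3 control and 1 sham array were measured, which makes 63 arrays in all. The last time is given in hours in the sample labels and in days in the protocol, and the 2 differ slightly. The labels give 4 animals per time, of which 3 supplied both exposed and control skin, but they do not say which arrays share an animal. Same-numbered exposed and control arrays share a day of sacrifice in all 27 pairs. Replicates 1 and 2 of a time share 1 day as well, so the day does not identify the pairs. Values from a fit with the replicate number as a block, which assumes these pairs, are given for some of the calls that it changes. Ages were not given in the sources used here, and no genotype or strain difference separates the groups. Each array read a punch biopsy of skin, a mixture of cells, so fewer cells of a type and less RNA per cell cannot be told apart. Values are log2 intensities, so 1 unit is a 2-fold difference, and levels of different probe sets are not compared.

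Markers of other cell types also differed between the groups. The mean log2 value of the 16 measured neutrophil and macrophage markers (of 22 listed) was 10.02 in exposed skin against 8.63 in control skin at 24 to 72 h, and 15 of the 16 were higher. The 11 measured keratinocyte markers (of 21 listed) averaged 9.99 in exposed skin against 11.62 in control skin over the same times, and 10 of them were lower. Of the genes with a symbol, 30.8% were higher and 14.3% lower over these times. Of 10 measured fibroblast markers (of 14 listed), 1 was higher and 5 were lower then, and of 8 adipocyte markers (of 10 listed) 0 were called. Over 168 to 514 h, 4 fibroblast and 7 adipocyte markers were lower, against 10.5% of the genes with a symbol. The 22 measured skeletal muscle markers (of 28 listed) averaged 7.81 in exposed skin at 24 h, with arrays between 7.27 and 8.63, against 10.74 in control skin, between 9.90 and 11.22. By the threshold given below, only 2 of the 22 were lower and 0 higher at 24 h, and 0 were called over 24 to 72 h. Control arrays alone spanned 7.44 to 13.14 in this muscle score at 168 h, so the amount of muscle in a biopsy varied widely. The part of these shifts in the chaperone results was not tested, except for muscle, which was also entered as a covariate. The median of all values of an array lay between 7.75 and 7.86.

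Exposed skin was compared with control skin at each time with limma, a moderated linear model that pools the spread of all groups, and a gene was called where its p-value, adjusted by Benjamini and Hochberg's method over all 23999 probe sets, was below 0.05. Most chaperone genes rose at 24 h, with smaller groups before and after. At 1 h, 1 chaperone gene was higher and 0 were lower, against 0.413% and 0.788% of all probe sets. At 2 h 0 were called in either direction, against 0.338% higher and 0.0542% lower. At 4 h, 6 were higher and 0 lower, against 1.11% and 0.342%, and 5 of these 6 belonged to the HSP70 group. Among the genes with a symbol, the shares higher and lower were 0.488% and 0.606% at 1 h. They were 0.503% and 0.0148% at 2 h, and 1.48% and 0.429% at 4 h.

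At 24 h, 34 of the 54 genes were higher and 2 were lower, against 14.4% and 12.7% of all probe sets. Among all 6765 genes with a symbol, 24.9% were higher and 11.4% were lower at that time, while 63% of the chaperone genes were higher; the 2 shares were not tested against each other. The median difference of the 54 genes was 0.58 on the log2 scale, against -0.01 for all probe sets. For 35 of these 36 genes, and for 93.3% of all probe sets called at 24 h, every exposed array lay on one side of every control array. At the other times this held for 88.8% to 98.3% of all called probe sets, so groups that do not overlap are usual for a called gene.

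At 48 h, 8 genes were higher and 2 lower, against 5.84% and 4.11% of all probe sets; with the replicate block 13 were higher and 4 lower, against 8.02% and 6.03%. At 72 h the counts were 9 and 2, against 5.4% and 4.25%. At 168 h, 10 were higher and 7 lower, against 9.87% and 8.06%, which was the most lower calls of any time. At 336 h 0 were called, against 2.38% higher and 1.66% lower. With the replicate block 3 were higher at 336 h (HSPA8, DNAJC3 and CCT4) and 1 was lower (DNAJC6), against 3.94% and 3.3%. At 514 h, 10 were higher and 0 lower, against 3.7% and 2.13%, or 16 and 0 with the replicate block, against 5.33% and 3.68%. The unblocked count at 514 h was 1 without exposed replicate 1 or without exposed replicate 2 and 3 without control replicate 1, and only the call of HSPA4 held in all 6 fits that each left out 1 array. Among the genes with a symbol, unblocked, 11.5% were higher and 2.88% lower at 48 h, 9.12% and 4.12% at 72 h, and 14.5% and 9.46% at 168 h. At 336 h these shares were 4.18% and 1.83%, and at 514 h 5.56% and 2%. Of the chaperone genes, 14.8% were higher at 48 h, 16.7% at 72 h and 18.5% at 168 h. These shares were not tested against each other.

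The counts at other times also depended on single arrays, though less at 24 h. When each of the 6 exposed and control arrays of a time was left out in turn, 30 of the 36 calls at 24 h held in all 6 fits, as did 9 of 17 at 168 h, 5 of 11 at 72 h, 3 of 6 at 4 h, 2 of 10 at 48 h and 0 of 1 at 1 h. The count at 4 h was 3 without exposed replicate 1 and 10 without control replicate 1. The count at 48 h was 6 without control replicate 2, that at 72 h was 5 without exposed replicate 3 and 6 without exposed replicate 1, control replicate 1 or control replicate 2, and that at 168 h was 10 without exposed replicate 1 and 11 without control replicate 3. The 1 call at 1 h was lost without exposed replicate 1, control replicate 1 or control replicate 2, and the count was 3 without control replicate 3. At 2 h the count was 1 without exposed replicate 3, and at 336 h it was 5 without exposed replicate 3. By the dates in the labels, arrays of 1, 24 and 168 h, of 2, 48 and 336 h, and of 4, 72 and 514 h formed 3 sets. No day of RNA extraction, labelling or scanning was shared between sets. Each time was compared within its set, and each window holds 1 time of each set. Differences in counts between times of different sets cannot be told apart from the set. The labels give 5 days on which the RNA was amplified and labelled, and arrays of 24 h and of 168 h fell on 2 of them, with 2 exposed and 2 control arrays on one and 1 of each on the other. With that day as a term, 36 of the 36 calls at 24 h and 16 of the 17 at 168 h were also made. Arrays of 1 h and 336 h also fell on 2 of these days, unevenly between exposed and control skin. At 24 h and at 72 h, RNA of 1 control array was extracted on a different day from the exposed arrays. With the day of RNA extraction as a term, 32 of the 36 calls at 24 h and 9 of the 11 at 72 h were also made. Of the exposed arrays of 24 h, 1 was scanned on another day.

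With the 1 sham array of a time in place of its 3 control arrays, 24 of the 36 calls at 24 h were also made, as were 5 of 17 at 168 h, 4 of 11 at 72 h, 6 of 10 at 48 h, 2 of 6 at 4 h and 1 of 10 at 514 h. The 5 at 168 h were HSPA2, HSPA6, DNAJA2, DNAJC17 and DNAJC3.

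**Figure D1:**
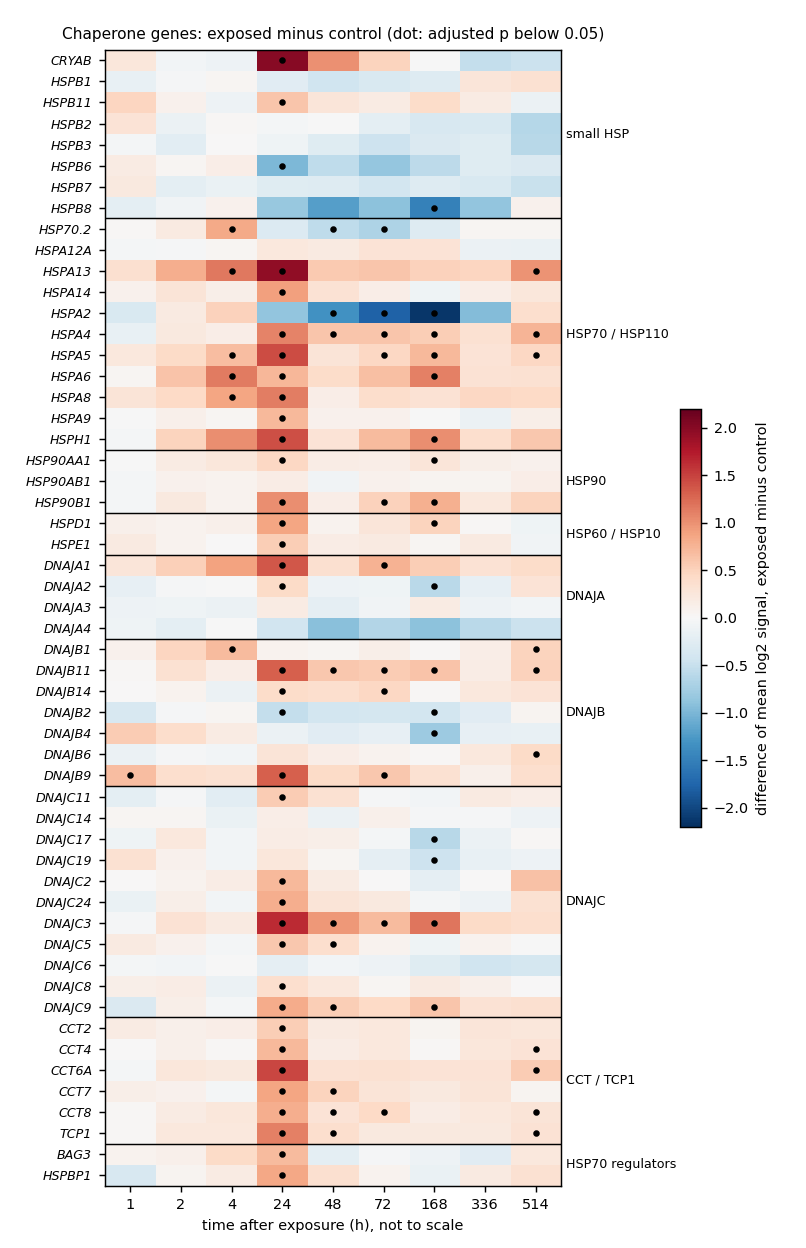
Difference between exposed and control skin (log2, means of 3 arrays each) for the 54 chaperone genes (rows, ordered by role) at the 9 times in hours (columns). Red is higher and blue is lower in exposed skin, and a black dot marks an adjusted p below 0.05; the 24 h column holds 36 dots and the 336 h column holds 0, in fits without the replicate block.

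Seen by gene, 35 of the 54 were higher at 1 or more times and lower at none, 7 were lower at 1 or more times and higher at none, and 2 did both. The 2 that did both were HSP70.2 and DNAJA2. No single time called the remaining 10 (with the replicate block, HSPB1 was called at 48 h and DNAJC6 at 336 h), and 5 of those were called in no window of 3 times either: HSPB3, HSPB7, HSP90AB1, DNAJA3 and DNAJC14. The genes higher at the most times were HSPA4, HSPA5 and DNAJB11 (5 times each) and DNAJC3 and CCT8 (4 times each).

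The stress-inducible cytosolic pair, HSP70.2 and its J protein partner DNAJB1, were higher at 4 h. HSP70.2 read 12.09, 11.66 and 12.06 in exposed skin at 4 h, against 11.01, 11.14 and 11.19 in control skin. The exposed arrays all lay above the control arrays, and the sham array, at 11.59, lay between the groups. The difference was 0.83 ± 0.16 (SE, n = 3 each; 1.77-fold; adjusted p = 0.00201 by limma).

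HSP70.2 was then below control. It read 11.15, 11.47 and 11.34 in exposed skin at 48 h, against 11.85, 12.07 and 11.71 in control skin, and 10.72, 10.52 and 11.17 in exposed skin at 72 h, against 11.62, 11.53 and 11.29 in control skin. The groups were apart at both times. It fell by 0.56 ± 0.16 at 48 h (adjusted p = 0.0235) and by 0.68 ± 0.16 at 72 h (adjusted p = 0.00469, limma). The 48 h call was lost without exposed replicate 1, control replicate 2 or exposed replicate 3 (highest adjusted p = 0.163). The other 2 probe sets of the gene had the same signs over 1 to 4 h and over 24 to 72 h; 1 of them was called in both windows (0.44 and -0.63) and the other in neither (0.50 and -0.35; adjusted p = 0.0926 and 0.119).

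DNAJB1, which stimulates the ATPase of HSP70, read 11.06, 10.48 and 10.54 in exposed skin at 4 h, against 9.97, 10.08 and 9.92 in control skin. The groups did not overlap, and the difference was 0.70 ± 0.13 (1.63-fold; adjusted p = 0.000609, limma). Its difference over 24 to 72 h was 0.08 and was not called (adjusted p = 0.429). At 514 h it read 10.65, 10.57 and 10.61 in exposed skin, against 10.10, 10.12 and 10.15 in control skin, a difference of 0.49 ± 0.13 (adjusted p = 0.0168), which was lost without exposed replicate 1, control replicate 1 or exposed replicate 2 (highest adjusted p = 0.0715).

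These 4 h calls were lost against other baselines. Against the single sham array of 4 h, the difference was 0.35 for HSP70.2 (adjusted p = 0.65) and 0.60 for DNAJB1 (adjusted p = 0.121). In fits on the 4 h arrays alone, the adjusted p was 0.119 for HSP70.2 and 0.294 for DNAJB1.

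**Figure D2:**
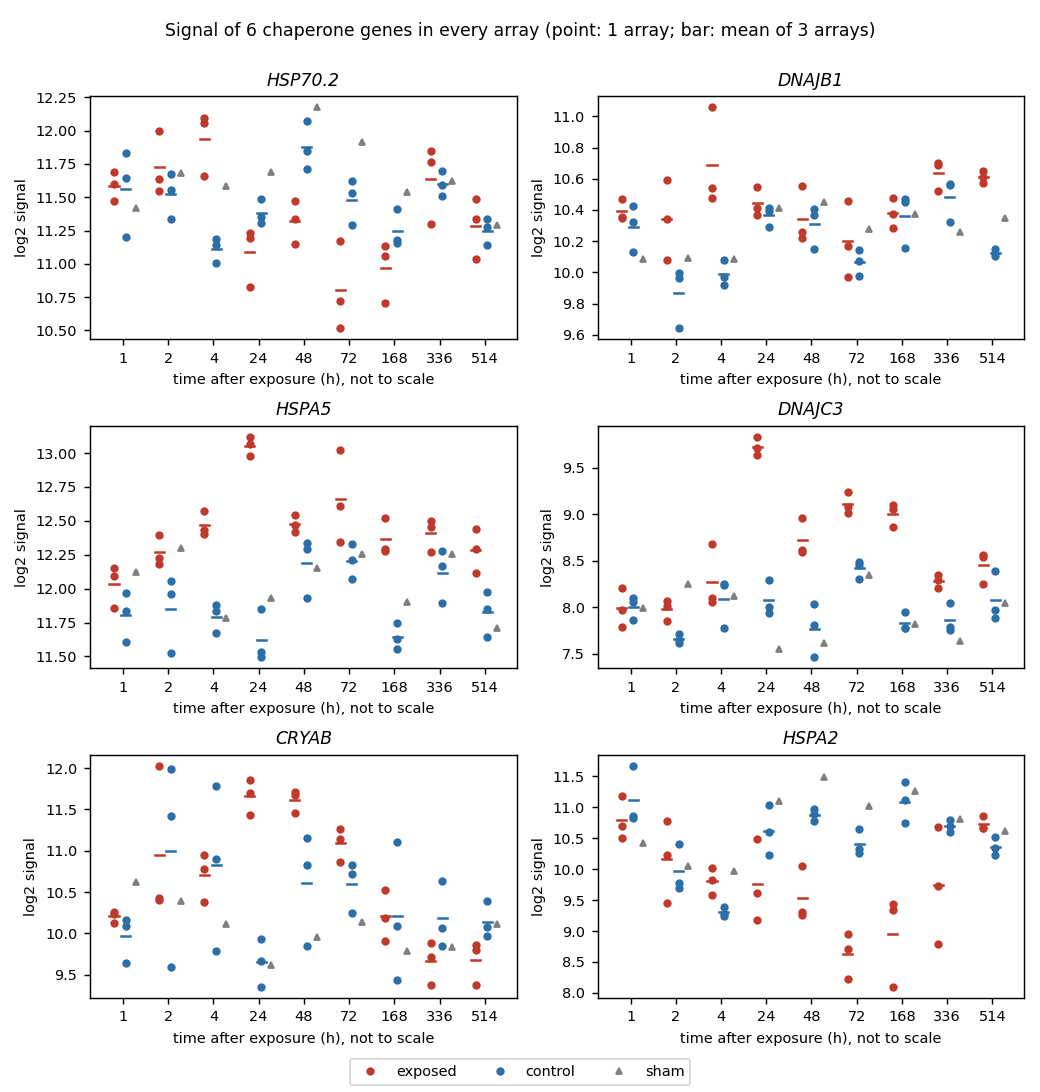
Log2 intensity of HSP70.2, DNAJB1, HSPA5, DNAJC3, CRYAB and HSPA2 (1 panel each) at the 9 times, with a point per array for exposed and control skin, a bar at the mean of 3 and a triangle for the sham array. The exposed points of HSP70.2 lie above control at 4 h and below it at 72 h, those of HSPA5 and DNAJC3 lie above control at 24 h and 168 h, and those of HSPA2 lie below control at 48, 72 and 168 h.

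Other cytosolic HSP70 genes followed different courses. HSPA8, the constitutive HSC70, read 13.14, 12.43 and 12.57 in exposed skin at 4 h, against 12.31, 11.40 and 11.79 in control skin, and 12.95, 12.97 and 13.01 in exposed skin at 24 h, against 11.98, 11.83 and 11.76 in control skin. The groups were apart at both times, with differences of 0.88 ± 0.17 (adjusted p = 0.00151) and 1.12 ± 0.17 (adjusted p = 2.54e-06, limma). The 4 h call was lost without exposed replicate 1 or control replicate 2 (highest adjusted p = 0.0613). The direction depended on the probe set: the other 3 had differences of -0.20 to -0.24 at 1 to 4 h and of -0.14 to -0.28 at 24 to 72 h, opposite to the one used. All 4 were higher at 168 to 514 h, by 0.40, 0.32, 0.28 and 0.26, so only that window had 1 direction for HSPA8.

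HSPA6, a strictly stress-inducible HSP70 in humans, read 9.35, 8.47 and 8.86 in exposed skin at 4 h, against 8.04, 7.64 and 7.57 in control skin (difference 1.15 ± 0.28; adjusted p = 0.0183, limma). At 168 h it read 9.62, 8.24 and 7.77 in exposed skin, against 7.24, 7.47 and 7.58 in control skin (1.11 ± 0.28; adjusted p = 0.00355). No array overlapped at either time, but 1 exposed array stood far above the other two at 168 h, and without that replicate 1 the adjusted p was 0.132. The difference of 0.73 at 24 h (adjusted p = 0.0477) was not called with the replicate block (adjusted p = 0.0589). The 4 h call was held in 2 of the 6 fits (highest adjusted p = 0.224, without exposed replicate 1, control replicate 2, exposed replicate 3 or control replicate 3).

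The nucleotide exchange factors of the HSP110 family were both higher at 24 h. HSPA4 read 10.75, 10.62 and 10.90 in exposed skin at 24 h, against 9.61, 9.68 and 9.72 in control skin, a difference of 1.08 ± 0.16 (2.12-fold; adjusted p = 1.38e-06). It was also higher at 48, 72, 168 and 514 h, by 0.54 to 0.75. The 48 h call was lost without control replicate 1 (adjusted p = 0.0765), the 72 h call without exposed replicate 1, control replicate 1 or exposed replicate 3 (highest adjusted p = 0.152), and the 168 h call without control replicate 1 or exposed replicate 3 (highest adjusted p = 0.0904), and with the mean of the gene's probe sets the difference was 0.66 at 24 h (adjusted p = 0.00025) and was not called at 168 h (adjusted p = 0.122) or 514 h (adjusted p = 0.111). Its mean difference over 1 to 4 h was 0.06 and was not called. HSPH1, the other HSP110 gene, read 11.20, 11.19 and 11.33 in exposed skin at 24 h, against 9.94, 9.74 and 9.79 in control skin (1.42 ± 0.32; 2.67-fold; adjusted p = 0.000746, limma). At 4 h HSPH1 read 11.35, 9.82 and 9.55 in exposed skin, against 9.82, 8.96 and 8.89 in control skin, with overlapping groups; the difference of 1.02 ± 0.32 was not called (adjusted p = 0.126) but was with the replicate block (adjusted p = 0.00265). Its differences of 0.49 over 1 to 4 h (adjusted p = 0.139) and 0.69 at 72 h (adjusted p = 0.201) were likewise called only with the block (adjusted p = 0.0061 and 0.0155). At 168 h it was higher by 1.02 ± 0.32 (adjusted p = 0.0231), a call lost without exposed or control replicate 1 or 3 (highest adjusted p = 0.106). Of the rest of the HSP70 group, HSPA14, which works at the ribosome, was higher by 0.91 at 24 h (adjusted p = 1.19e-07), and HSPA12A, a distant relative, was called only over 24 to 72 h (0.24 ± 0.09; adjusted p = 0.0334).

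HSPA2 went the other way and had the deepest fall of the 54 genes. It is an HSP70 best known from male germ cells that is also made in the epidermis. It read 9.31, 9.26 and 10.04 in exposed skin at 48 h, against 10.77, 10.98 and 10.89 in control skin. At 72 h it read 8.71, 8.22 and 8.96 in exposed skin, against 10.65, 10.26 and 10.32 in control skin, and at 168 h it read 8.10, 9.43 and 9.33 in exposed skin, against 11.11, 11.41 and 10.74 in control skin. All exposed arrays lay below all control arrays at these 3 times.

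HSPA2 fell by 1.34 ± 0.35 at 48 h (adjusted p = 0.0101), by 1.78 ± 0.35 at 72 h (adjusted p = 0.000575) and by 2.13 ± 0.35 at 168 h (0.228 of control; adjusted p = 1.9e-05, limma). The 48 h call was at adjusted p = 0.0519 without control replicate 2. By 514 h it read 10.67, 10.66 and 10.86 in exposed skin, against 10.22, 10.52 and 10.34 in control skin, a difference of 0.37 that was not called (adjusted p = 0.621). The keratinocyte marker score was 9.46 in exposed skin against 12.01 in control skin at 168 h, and 12.01 in exposed skin against 11.63 in control skin at 514 h; its part in the HSPA2 values was not tested.

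A chosen set of 6 chaperones of the ER was followed over the times. The 6 were HSPA5 (BiP, the main ER HSP70), HSPA13 (a microsome-associated HSP70), HSP90B1 (GRP94, the ER HSP90) and the ER J proteins DNAJB9, DNAJB11 and DNAJC3. The set was picked by hand and may not hold every ER member. The J proteins DNAJB14, higher at 2 times, and DNAJC14, called at 0 times, were not counted in it. All 6 were higher at 24 h, when 24.9% of the genes with a symbol were higher, 5 were higher at 72 h (9.12% of genes) and 4 were higher at 168 h (14.5% of genes). Before 24 h, 1 was called at 1 h, 0 were called at 2 h and 2 were called at 4 h, when 0.488%, 0.503% and 1.48% of genes were higher. Of the remaining times, 48 h had 2 calls, 336 h had 0 and 514 h had 3, when 11.5%, 4.18% and 5.56% of genes were higher. With the replicate block these counts were 3, 1 and 5, when 8.02%, 3.94% and 5.33% of all probe sets were higher. The count at 168 h was 5 with the block.

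HSPA5 read 12.58, 12.43 and 12.40 in exposed skin at 4 h, against 11.67, 11.88 and 11.83 in control skin, and 12.98, 13.07 and 13.12 in exposed skin at 24 h, against 11.49, 11.53 and 11.85 in control skin. The groups were apart at both times, by 0.68 ± 0.14 (adjusted p = 0.00336) and by 1.43 ± 0.14 (2.7-fold; adjusted p = 3.8e-10, limma). At 168 h it still read 12.52, 12.28 and 12.29 in exposed skin, against 11.55, 11.75 and 11.63 in control skin (0.72 ± 0.14; adjusted p = 0.000194). The 4 h call was lost against the sham array (adjusted p = 0.103) and in a fit on the 4 h arrays alone (adjusted p = 0.0808), and the 168 h call was lost against sham (adjusted p = 0.128). The calls at 72 h (0.46; adjusted p = 0.0293) and 514 h (0.46; adjusted p = 0.0411) each held in 2 of 6 fits, with a highest adjusted p of 0.364 at 72 h, without exposed replicate 1 or 3 or control replicate 1 or 2, and of 0.244 at 514 h, without exposed or control replicate 1 or 2.

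DNAJC3, an ER co-chaperone that also inhibits the kinase PERK, was higher at 4 times in a row. It read 9.63, 9.71 and 9.83 in exposed skin at 24 h, against 8.29, 8.00 and 7.94 in control skin. At 48 h it read 8.61, 8.59 and 8.96 in exposed skin, against 7.81, 7.46 and 8.03 in control skin, and at 168 h it read 9.05, 9.09 and 8.86 in exposed skin, against 7.78, 7.95 and 7.77 in control skin. Exposed and control arrays were apart at each of these times. The differences were 1.65 ± 0.15 at 24 h (3.13-fold; adjusted p = 6.59e-11), 0.96 and 0.69 after 48 and 72 h, and 1.17 at 168 h (2.25-fold; adjusted p = 1.83e-07, limma), and all 4 calls held in every fit that left out 1 array of that time. Over 1 to 4 h its difference was 0.16 and was not called (adjusted p = 0.372). The rise was smaller on the second probe set of DNAJC3, at 0.25 over 24 to 72 h (adjusted p = 0.00249) against 1.10 on the one used, and at 0.01 over 168 to 514 h (adjusted p = 0.957) against 0.66. With the mean of both, the difference was 0.89 at 24 h and 0.55 at 168 h, and both were called.

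DNAJB9, an ER J protein that helps dispose of misfolded proteins, was the 1 gene called at 1 h, at 9.75, 9.64 and 9.50 in exposed skin against 8.97, 8.71 and 9.20 in control skin (0.67 ± 0.15; adjusted p = 0.00965, limma; highest adjusted p = 0.0958 with an array left out). At 24 h it read 10.43, 10.24 and 10.13 in exposed skin, against 9.33, 8.89 and 8.63 in control skin, a difference of 1.32 ± 0.15 (2.49-fold; adjusted p = 5.61e-09). DNAJB11, which brings secreted proteins to BiP, read 10.89, 10.75 and 11.13 in exposed skin at 24 h, against 9.62, 9.82 and 9.38 in control skin (1.32 ± 0.14; adjusted p = 3.74e-09). Neither gene had overlapping groups at 24 h. DNAJB11 was also higher at 48, 72, 168 and 514 h, by 0.51 to 0.63. Its 72 h call was lost without control replicate 2 or exposed replicate 3 (highest adjusted p = 0.18) and its 514 h call without exposed replicate 1, control replicate 1 or exposed replicate 2 (highest adjusted p = 0.198).

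HSPA13 had the largest rise of the HSP70 group, at 10.95, 10.76 and 10.63 in exposed skin at 24 h against 8.84, 8.81 and 8.83 in control skin (1.95 ± 0.25; 3.88-fold; adjusted p = 8.76e-08, limma). It was already higher at 4 h, at 10.38, 9.95 and 9.95 in exposed skin against 8.85, 9.02 and 8.95 in control skin (1.15 ± 0.25; adjusted p = 0.00523, or 0.0667 without exposed replicate 1 and 0.0559 with the mean of the gene's probe sets).

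On the probe sets used, the ER member had the largest difference among the HSP90 genes. HSP90B1 read 12.43, 12.52 and 12.72 in exposed skin at 24 h, against 11.51, 11.61 and 11.47 in control skin, and 12.62, 12.48 and 12.35 in exposed skin at 168 h, against 11.58, 11.77 and 11.75 in control skin. The groups were apart at both times, by 1.03 ± 0.16 (2.04-fold; adjusted p = 4.42e-06) and by 0.79 ± 0.16 (adjusted p = 0.000444, limma), of which the second was not called against the sham array (adjusted p = 0.196). The inducible cytosolic HSP90AA1 read 13.34, 13.37 and 13.41 in exposed skin at 24 h, against 12.83, 12.88 and 13.03 in control skin (0.46 ± 0.10; 1.38-fold; adjusted p = 0.000235). Over 24 to 72 h, HSP90AA1 differed by 0.25 on the probe set used. On 2 of its other probe sets the differences were 0.57 and 0.55 (adjusted p = 4.78e-05 and 0.00538, limma). Its remaining probe sets, at 0.38 and -0.08, were not called. HSP90B1 differed by 0.56 on the probe set used and by 0.73 on its other one. The constitutive HSP90AB1 read 12.82, 12.87 and 12.92 in exposed skin at 24 h, against 12.77, 12.73 and 12.62 in control skin, and it was called at no time, with a difference of 0.06 ± 0.05 over 24 to 72 h (adjusted p = 0.36).

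The mitochondrial chaperonin HSPD1 (HSP60) and its lid HSPE1 (HSP10), which are neighbours in the RefSeq annotation of the pig genome Sscrofa11.1, both rose at 24 h. HSPD1 read 12.79, 12.61 and 12.78 in exposed skin, against 11.95, 11.76 and 11.89 in control skin (0.86 ± 0.13; 1.81-fold; adjusted p = 2.09e-06). HSPE1 read 12.62, 12.43 and 12.70 in exposed skin, against 12.02, 12.02 and 12.07 in control skin (0.54; 1.46-fold; adjusted p = 0.000174, limma). No array of the groups overlapped for either gene. HSPA9, the mitochondrial HSP70, was higher by 0.71 at 24 h (adjusted p = 1.77e-05).

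Of the J proteins outside the ER, DNAJA1, a main cytosolic partner of HSP70, read 11.79, 11.55 and 11.95 in exposed skin at 24 h, against 10.39, 10.60 and 10.22 in control skin (1.36 ± 0.25; 2.57-fold; adjusted p = 3.66e-05). Its second probe set had a difference of 0.26 at 1 to 4 h (adjusted p = 0.00351), -0.11 at 24 to 72 h and 0.01 at 168 to 514 h, so the 2 probe sets had 1 sign in 2 of the 3 windows. DNAJA2, a related cytosolic J protein, changed in both directions. It read 10.69, 10.71 and 10.57 in exposed skin at 24 h, against 10.23, 10.09 and 10.39 in control skin (0.42; adjusted p = 0.00281), and 9.85, 9.94 and 9.94 in exposed skin at 168 h, against 10.48, 10.72 and 10.32 in control skin (-0.59 ± 0.11; adjusted p = 1e-04, limma). The groups did not overlap at either time.

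DNAJB2, a J protein that passes clients to the proteasome, was lower at 24 h, at 8.14, 8.36 and 8.16 in exposed skin against 8.55, 8.59 and 9.08 in control skin (-0.52; adjusted p = 0.00493, or 0.0945 without control replicate 3). Over 24 to 72 h it was lower in 9 of 9 same-numbered pairs, by -0.44 ± 0.08 (adjusted p = 4.48e-05, limma). DNAJB4, a cytosolic relative of DNAJB1, read 9.20, 9.09 and 9.13 in exposed skin at 168 h, against 9.47, 10.18 and 10.19 in control skin (-0.81 ± 0.28; adjusted p = 0.0433), and this call held in 1 of 6 fits, the one without control replicate 1 (highest adjusted p = 0.158).

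Of the 11 DNAJC genes, which mostly tie HSP70 to 1 task or place, 7 were higher and 0 lower at 24 h, against 24.9% and 11.4% of the genes with a symbol. Besides DNAJC3 these were DNAJC9, a histone chaperone (0.82), DNAJC24, of the diphthamide pathway (0.79), the ribosome-associated DNAJC2 (0.72, or adjusted p = 0.0751 without exposed replicate 1), DNAJC5, found on secretory vesicles (0.59), the mitochondrial DNAJC11 (0.56) and DNAJC8, found with splicing factors (0.37). The second probe set of DNAJC11 had the other sign over 24 to 72 h, at -0.08 (adjusted p = 0.345, limma) against 0.29 on the one used. At 168 h DNAJC17 fell, at 7.83, 7.96 and 7.84 in exposed skin against 8.44, 8.65 and 8.36 in control skin (-0.61 ± 0.13; adjusted p = 0.000471, limma). DNAJC6, the clathrin-uncoating auxilin, was lower over 168 to 514 h by -0.37 ± 0.09 (adjusted p = 0.00213), at means of 5.25 in exposed skin and 5.61 in control skin, which are low on these arrays.

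All 6 measured genes of the CCT/TCP1 ring rose at 24 h, when 24.9% of the genes with a symbol were higher. CCT6A read 11.70, 11.49 and 11.72 in exposed skin, against 10.16, 10.35 and 9.99 in control skin (1.47 ± 0.15; 2.77-fold; adjusted p = 1.17e-09). TCP1 read 12.59, 12.52 and 12.54 in exposed skin, against 11.45, 11.53 and 11.35 in control skin (1.11 ± 0.10; 2.16-fold; adjusted p = 2.74e-11). CCT8 read 12.51, 12.48 and 12.63 in exposed skin, against 11.83, 11.77 and 11.62 in control skin (0.80; 1.74-fold; adjusted p = 3.35e-10, limma). No exposed array of these 3 overlapped a control array.

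The other subunits were higher at 24 h by 0.87 for CCT7, 0.72 for CCT4 and 0.55 for CCT2. At 72 h 1 subunit was called, CCT8, at 11.75, 11.69 and 11.73 in exposed skin against 11.35, 11.20 and 11.32 in control skin (0.43; adjusted p = 0.000181, limma). None of the 6 was called at 168 or at 336 h (with the replicate block, CCT4 was called at 72 and 336 h), and 4 were called at 514 h, each of which was lost when exposed replicate 1, control replicate 1 or exposed replicate 2 was left out. Averaged over 168 to 514 h, with 9 arrays a group, all 6 were higher, by 0.19 to 0.38. Of the genes with a symbol, 5.56% were higher at 514 h and 18.9% over 168 to 514 h.

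**Figure D3:**
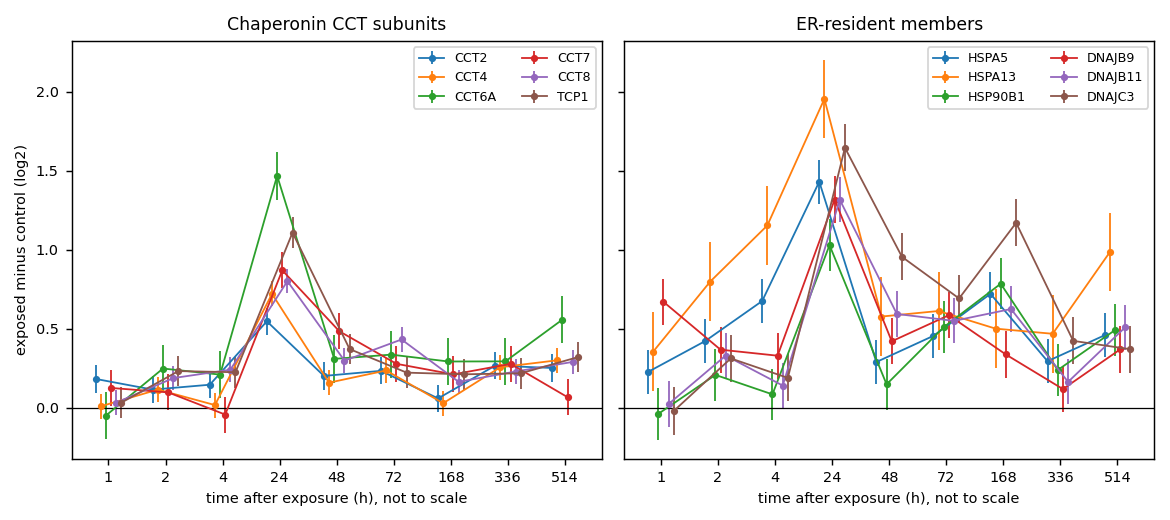
Difference between exposed and control skin (log2, with its SE as bars, n = 3 each) over the 9 times, for the 6 CCT/TCP1 genes (left) and the chosen set of 6 ER chaperones (right). Both groups peak at 24 h; the ER chaperones DNAJC3, HSPA5, HSP90B1 and DNAJB11 are also called at 168 h, where no CCT/TCP1 gene was called.

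Of the 8 small heat shock proteins, 2 were higher and 1 was lower at 24 h. These shares are close to the 24.9% and 11.4% of the genes with a symbol. Over 24 to 72 h, 2 were higher and 3 lower, against 30.8% and 14.3%, and the shares were not tested against each other. HSPB11, not a classical member, was higher by 0.61 at 24 h, a call lost without control replicate 1. CRYAB, alpha B-crystallin, had the largest rise of the 54 genes at 24 h. It read 11.43, 11.70 and 11.86 in exposed skin, against 9.35, 9.94 and 9.66 in control skin, with the groups far apart (2.01 ± 0.43; 4.03-fold; adjusted p = 0.000391, limma). Against the sham array of 24 h the difference was 2.04 (adjusted p = 0.0207). A second, dimmer CRYAB probe set had a difference of 0.11 over 24 to 72 h and was not called (adjusted p = 0.268). HSPB2, its neighbour in the RefSeq annotation, had a difference of -0.09 over 24 to 72 h (adjusted p = 0.682) and was lower over 168 to 514 h by -0.44 ± 0.14 (adjusted p = 0.0172).

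HSPB1 (HSP27), a small heat shock protein of differentiating keratinocytes, averaged 12.43 ± 0.19 in exposed skin over 24 to 72 h, against 12.76 ± 0.15 in control skin (SD, n = 9 each). It was lower in 9 of 9 same-numbered pairs, by -0.34 ± 0.09 (adjusted p = 0.0022, limma). HSPB6 (HSP20), abundant in muscle, read 8.79, 8.51 and 8.61 in exposed skin at 24 h, against 9.59, 9.44 and 9.84 in control skin (-0.99 ± 0.30; adjusted p = 0.0102, or 0.0542 without control replicate 3). HSPB8, the partner of BAG3 in selective autophagy, read 8.49, 8.53 and 9.15 in exposed skin at 168 h, against 9.96, 9.77 and 10.91 in control skin (-1.49 ± 0.51; adjusted p = 0.0349), and this call was lost without exposed replicate 1, exposed replicate 2 or control replicate 3 (highest adjusted p = 0.183). For HSPB6 and HSPB8 every exposed array lay below every control array at these times.

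Several of these genes are made in muscle, so their values were set against the muscle score, the mean log2 value of the 22 muscle markers on each array. Within the groups, 7 of the 54 genes rose with the score and 0 fell, against 4.93% and 3.06% of all probe sets. They were CRYAB, HSPB2, HSPB3, HSPB7, HSPB8, DNAJA4 and HSPA9, with slopes of 0.05 to 0.25 log2 units per unit of the score. With the score as a covariate the difference over 24 to 72 h was 1.47 for CRYAB (adjusted p = 6.31e-07), -0.56 for HSPB8 (adjusted p = 0.0393), -0.65 for HSPB6 (adjusted p = 0.00159), -0.29 for HSPB1 (adjusted p = 0.00951) and -1.44 for HSPA2. The lower values of DNAJA4 over 24 to 72 h (-0.66; adjusted p = 0.0248) and of HSPB2 over 168 to 514 h were not called with the covariate, at -0.35 (adjusted p = 0.15) and -0.21 (adjusted p = 0.129). The second probe set of DNAJA4 was higher over 24 to 72 h (0.15; adjusted p = 0.0331), so that gene has no single direction.

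**Figure D4:**
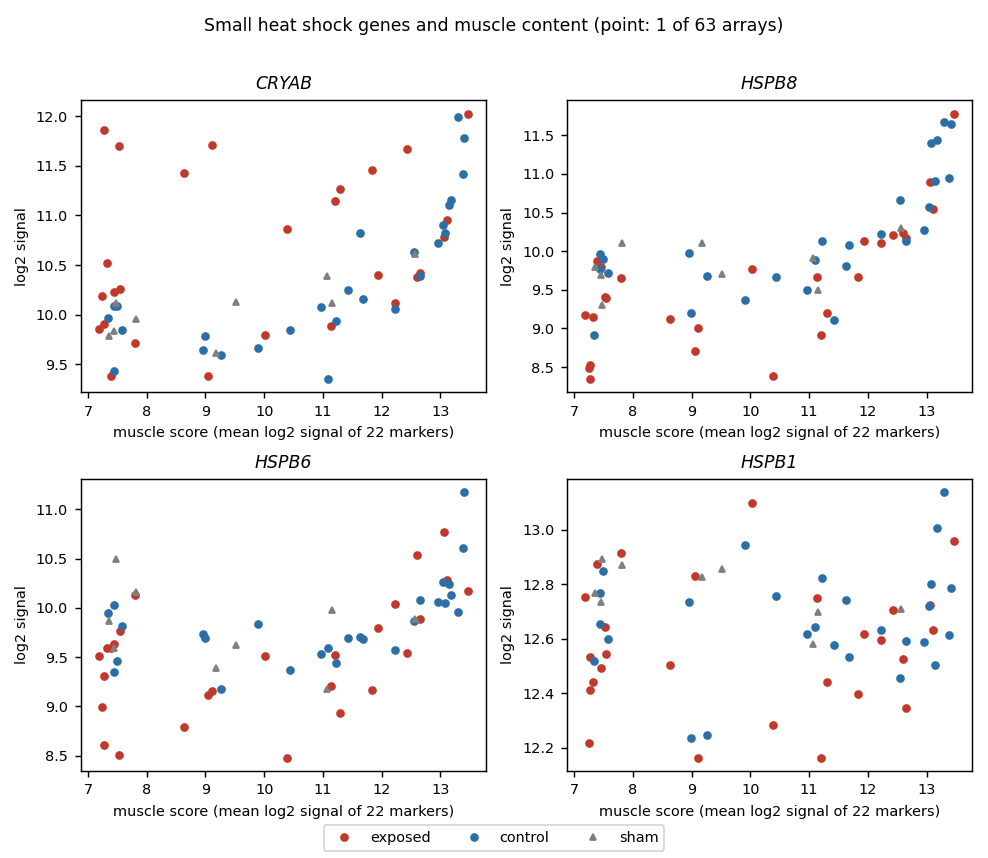
Log2 intensity of CRYAB, HSPB8, HSPB6 and HSPB1 (1 panel each) against the muscle score of the array (mean log2 value of 22 skeletal muscle markers), 1 point per array for all 63 arrays, by kind of skin. The slope within groups was called for CRYAB (0.18) and HSPB8 (0.25).

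Of the 2 regulators of HSP70, BAG3 read 11.31, 11.45 and 11.48 in exposed skin at 24 h, against 10.62, 10.66 and 10.89 in control skin (0.69; 1.61-fold; adjusted p = 0.000467, limma), with no overlap. It was called at no other time and in no window. HSPBP1, a nucleotide exchange factor, was higher at 24 h by 0.84 (adjusted p = 6.28e-07).

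Averaging 3 times gave 9 exposed against 9 control arrays. Over 1 to 4 h, 9 of the 54 genes were higher and 0 lower, against 2.07% and 3.41% of all probe sets and 2.85% and 2.73% of the genes with a symbol. They were 5 HSP70 genes (HSP70.2, HSPA5, HSPA6, HSPA8 and HSPA13), the J proteins DNAJA1, DNAJB1 and DNAJB9, and CCT8. On the probe sets used the largest was HSPA13, at 0.77 ± 0.14 (adjusted p = 0.00037, limma). Its second probe set was at 0.43 and was not called (adjusted p = 0.118). DNAJB9 was at 0.46 on the probe set used. Its other probe sets were at 1.46 ± 0.13 (adjusted p = 1.15e-10) and 0.39 ± 0.09 (adjusted p = 0.00737, limma). The call of CCT8 (0.15 ± 0.04; adjusted p = 0.0314) was lost in 9 of the 18 fits that each left out 1 array, and that of HSP70.2 (0.35 ± 0.09; adjusted p = 0.0177) was lost without control replicate 2 of 1 h (adjusted p = 0.0577) or exposed replicate 2 of 2 h (adjusted p = 0.0554).

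Over 24 to 72 h, 33 were higher and 7 lower, against 18.2% and 16.9% of all probe sets, and against 30.8% and 14.3% of the genes with a symbol. By role, the higher genes were 9 of 11 in the HSP70 group, 2 of 3 HSP90 genes, both mitochondrial chaperonins, 1 of 4 DNAJA, 4 of 7 DNAJB and 6 of 11 DNAJC genes, 6 of 6 CCT/TCP1 genes, 1 of 2 regulators and 2 of 8 small heat shock proteins. The 7 lower genes were HSPB1, HSPB6, HSPB8, HSP70.2, HSPA2, DNAJA4 and DNAJB2. Of the 22 genes with several probe sets, 19 were called, 13 had another probe set called in the same direction, and 2 had one called in the opposite direction (HSPA8 and DNAJA4).

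Over 168 to 514 h, 21 were higher and 6 lower, against 12% and 9.88% of all probe sets and 18.9% and 10.5% of the genes with a symbol. The higher genes included 6 of 11 in the HSP70 group, 4 of 7 DNAJB genes and 6 of 6 CCT/TCP1 genes, and 0 of the 8 small heat shock proteins. HSPA5, HSPA6, HSPA8, HSPA13, DNAJA1, DNAJB9 and CCT8 were higher in all 3 windows on the probe set used.

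**Figure D5:**
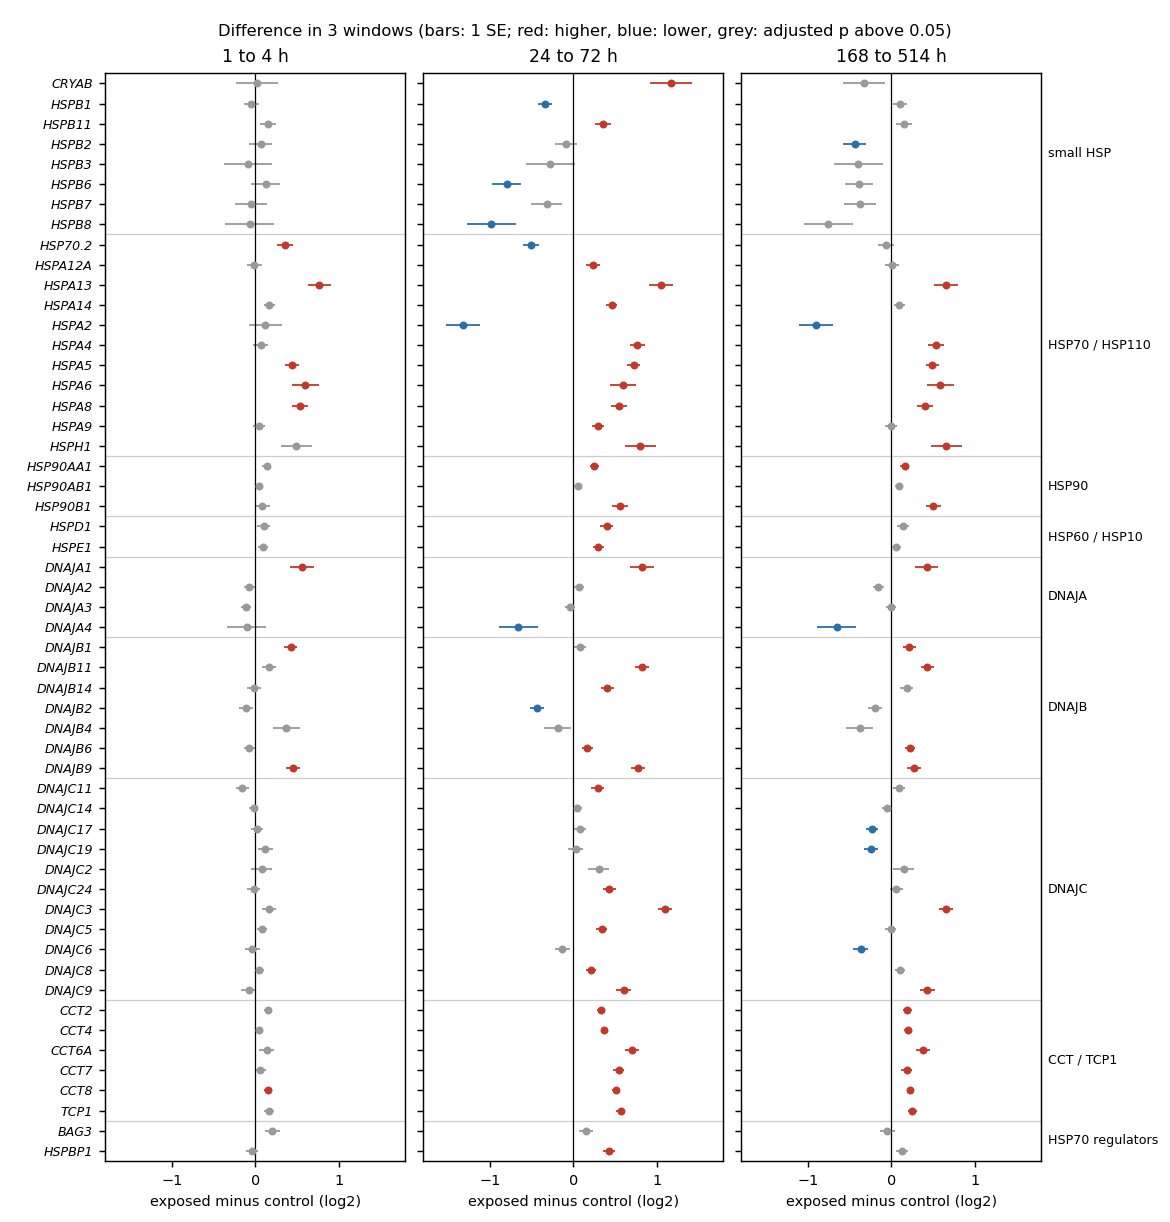
Difference between exposed and control skin (log2, points with SE bars, 9 arrays each) for the 54 chaperone genes in the windows 1 to 4 h, 24 to 72 h and 168 to 514 h, in order of role. Red points are higher and blue points lower at an adjusted p below 0.05; red points number 9, 33 and 21 and blue points 0, 7 and 6 in the 3 windows.

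The change between windows was tested directly. From 1 to 4 h to 24 to 72 h the difference increased for 18 genes and decreased for 5, against 10.1% and 6.43% of all probe sets. Among the genes with a symbol, these shares were 16.8% and 6.36%. The 18 included 5 of the 6 CCT/TCP1 genes, DNAJC3 (by 0.94 ± 0.12; adjusted p = 4.96e-07, limma) and HSPA4 (by 0.70 ± 0.13; adjusted p = 0.000139). The 5 were HSPA2, HSPB6, HSP70.2, DNAJB1 and DNAJB2, and HSP70.2 and DNAJB1 changed by -0.86 ± 0.13 (adjusted p = 1.13e-05) and -0.34 ± 0.10 (adjusted p = 0.0188).

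From 24 to 72 h to 168 to 514 h the difference increased for 2 genes and decreased for 11, against 4.45% and 4% of all probe sets, or 2 and 18 with the replicate block, against 6.42% and 6.43%. Without the block, it increased for 4.33% and decreased for 7.32% of the genes with a symbol. The 2 were HSPB1 (0.44 ± 0.12; adjusted p = 0.0193) and HSP70.2 (0.44 ± 0.13; adjusted p = 0.0313), both of which had been lower at 24 to 72 h. The 11 included CRYAB (-1.50 ± 0.35; adjusted p = 0.00509), the ER genes DNAJB9, DNAJB11 and DNAJC3, and CCT7, CCT8 and TCP1. The call of HSP70.2 was lost in 11 of the 36 fits that each left out 1 array.

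Other genes of the folding pathways were taken from lists of co-chaperones and partners, on the same array. Of the 18 measured genes of ER folding and the unfolded protein response (of 34 listed), 5 were higher at 1 to 4 h, 12 at 24 to 72 h and 11 at 168 to 514 h, and 0 were lower in any window; of the genes with a symbol, 2.85%, 30.8% and 18.9% were higher in these windows. Their median differences were 0.14, 0.54 and 0.37. The early ones included PPP1R15A, which reverses the translation block of the stress response (0.95 ± 0.16; adjusted p = 5.7e-05), and the transcription factor DDIT3 (0.84 ± 0.13; adjusted p = 3.16e-05, limma). At 24 to 72 h the largest were the disulfide-forming oxidase ERO1A (1.33 ± 0.15), SDF2L1 (1.27 ± 0.13) and MANF (0.96 ± 0.09), an ER-stress-induced secreted protein. XBP1 and ATF4, transcription factors of the same response, were not called in that window, at -0.01 and -0.10.

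Of the 20 measured HSF factors and cytosolic co-chaperones (of 27 listed), 1 was higher and 0 lower at 1 to 4 h, 9 and 2 at 24 to 72 h, and 4 and 1 at 168 to 514 h. The 4 of 20 at 168 to 514 h is close to the 18.9% of all genes with a symbol. The largest at 24 to 72 h were PTGES3 (p23, an HSP90 co-chaperone; 0.94 ± 0.09), FKBP4 (an HSP90-binding immunophilin; 0.59 ± 0.10) and HSBP1 (0.50 ± 0.08). HSF1, the main transcription factor of the heat shock response, was not called there, at 0.06. Of 11 measured prefoldin and CCT partners (of 14 listed), 0, 5 and 2 were higher in the 3 windows, against the same 2.85%, 30.8% and 18.9% of genes, and 0 were lower, with PFDN4, a prefoldin subunit, at 0.35 ± 0.08 at 24 to 72 h. Of 8 measured genes of mitochondrial import and quality control (of 16 listed), 0, 4 and 1 were higher and 0 lower, against the same shares of genes. The largest at 24 to 72 h was GRPEL1, the nucleotide exchange factor of mitochondrial HSP70, at 0.49 ± 0.07.

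Sham skin was compared with control skin over all 9 times. Of the 54 genes 0 were called, against 0% higher and 0.0208% lower among all probe sets, and 10 had an unadjusted p below 0.05. The largest of those 10 differences were -0.59 for DNAJA4 (adjusted p = 0.422) and -0.59 for HSPB3 (adjusted p = 0.505, limma), both genes whose level followed the muscle score. The muscle score averaged 11.60 in sham skin against 11.06 in control skin at 1 to 4 h. It was 8.84 against 11.66 at 24 to 72 h and 7.43 against 10.15 at 168 to 514 h. Of the 40 calls at 24 to 72 h, 32 were also made with the 3 sham arrays in place of the 9 control arrays, and of the 27 calls at 168 to 514 h, 9 were.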

How the data were processed

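The deposited values were log2 intensities of 63 Affymetrix porcine arrays, made by the authors with RMA in Partek, per the submitters' processing notes (versions not given in the sources used here). The unit of every value is therefore log2, as deposited, already background-corrected, normalized and summarized per probe set. RMA compresses differences between dim probe sets. Arrays carry no counts, so their number limits precision.

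From these, 124 control probe sets were removed and 23999 were tested in limma 3.58.1 (R 4.3.3) with 1 mean for each of 27 groups and 36 residual degrees of freedom (3.24 prior), two-sided, with Benjamini-Hochberg adjustment over all. Windows are means of 3 times. Genes were named by the platform annotation, which gave 10099 probe sets 1 symbol, 198 several and 13826 none; 53 of the 54 chaperone symbols matched RefSeq Sscrofa11.1. The replicate block assumes that same-numbered exposed and control arrays are pairs. They share a day of sacrifice in 27 of 27 pairs, per the labels. Some replicates of a time share that day with each other, so it does not identify the pairs. The deviations of same-numbered arrays correlated above 0.1 in 21 of the 27 (mean r = 0.270, lowest r = -0.378). The main fit has no block. Where nothing says that arrays came from separate animals, p-values measure only the spread between these samples. Genes are named with values where they belong to a core heat shock set, lead their role in a window, or lead a time with calls held in all 6 fits that each leave out 1 array; others were named after their values were seen. The members and lists were chosen with earlier results of these data known. The code was tested on simulated data. Promoter motifs were not analysed here.

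Alternatives were quantile normalization, another centring, no dim probe sets, trend and robust fits, the mean of a gene's probe sets, batches, the muscle score, sham as control, fits on single times, a replicate block, a 1.5-fold minimum and leaving out arrays.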

Additional observations from a re-analysis of the deposited data

Results flagged for a closer look

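These genes are listed because their difference between exposed and control skin itself changed between windows by limma's test of that change. From 1 to 4 h to 24 to 72 h, the difference of HSPA2 changed by -1.45 ± 0.29 (SE; adjusted p = 0.000319), that of HSPB6 by -0.92 ± 0.24 (adjusted p = 0.00605) and that of HSP70.2 by -0.86 ± 0.13 (adjusted p = 1.13e-05). Over the same windows it increased by 1.14 ± 0.35 for CRYAB (adjusted p = 0.0207), by 0.94 ± 0.12 for DNAJC3 (adjusted p = 4.96e-07) and by 0.70 ± 0.13 for HSPA4 (adjusted p = 0.000139).

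From 24 to 72 h to 168 to 514 h, the difference changed by -1.50 ± 0.35 for CRYAB (adjusted p = 0.00509), by -0.50 ± 0.12 for DNAJB9 (adjusted p = 0.00551) and by -0.44 ± 0.12 for DNAJC3 (adjusted p = 0.0165). It increased by 0.44 ± 0.13 for HSP70.2 (adjusted p = 0.0313) and by 0.44 ± 0.12 for HSPB1 (adjusted p = 0.0193).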

How the results depend on the processing

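Counts below are of called chaperone genes. With 3 arrays a group, single-time counts moved most. In fits on a time's own arrays 1 h had a count of 0, 4 h of 1, 48 and 72 h of 4 each and 514 h of 5. With sham arrays as the control group 1 h had 0, 4 h had 2, 72 h had 4, 168 h had 5, 514 h had 1, the windows of 1 to 4 h and 168 to 514 h had 1 and 9, and the 2 changes between windows had 14 and 1. With a replicate block 48 h had 17, 336 h had 4, 514 h had 16 and the later change had 20. With a 1.5-fold minimum 48 h had 4, 72 h had 6, 514 h had 2, the 3 windows had 2, 16 and 6, and the changes had 8 and 1. With the mean of a gene's probe sets 2 and 336 h had 1 each, as they did in fits that took the muscle score as a covariate. Leaving out 1 array gave the 9 times, in order, ranges of 0 to 3, 0 to 1, 3 to 10, 32 to 36, 6 to 11, 5 to 15, 10 to 13, 0 to 5 and 1 to 10, with 7 to 12, 37 to 40 and 21 to 28 in the windows, 20 to 25 and 10 to 15 for the changes, and 0 to 0 for sham. With the mean of a gene's probe sets, 3 directions reversed: HSPA8 was at -0.0289 over 1 to 4 h and -0.0353 over 24 to 72 h, and DNAJB6 at -0.135 over 168 to 514 h. The cause was not tested beyond the probe-set values given above. The replicate block moved no other count by over 1.5 times, but it changed further calls. It gained 2 calls at 4 h, 5 at 72 h, 4 at 168 h and 9 for the earlier change. At 24 h it gained 2 and lost 1, and in the 3 windows it gained 2, 1 and 3. Of 109 results for named genes, the replicate block lost 0 calls and gained 2 (HSPH1 over 1 to 4 h and DNAJB4 over 168 to 514 h), sham as control lost 40, the time's own arrays lost 7, the muscle score 6, the mean of probe sets 5 and quantile normalization 2; batch, centring, dim-probe, trend and robust settings lost 0.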
